A study of Mus musculus with 9 samples.

Results

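The genes described here encode the subunits of the proteasome and 3 chaperones that help to build it. They were taken from the table of all genes as every row named Psma, Psmb, Psmc or Psmd followed by a number, with a mean level of at least 1 RPKM over the 9 sequencing lanes. RPKM is the number of reads on a gene divided by the length of its gene model and by the mapped reads of the lane, so levels can be set side by side between genes. Of 39 genes with such names, 37 reached that level, out of 21423 genes in the table and 14051 genes at or above 1 RPKM. The 2 left out were Psma8, at 0.0261 RPKM, and Psmb11, at 0.403 RPKM, whose products replace other subunits in germ cells and in the thymus. The members just inside the limit were Psmb9, at 1.1 RPKM, and Psmb8, at 2.76 RPKM.

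The RNA came from punches of the nucleus accumbens, a forebrain region that receives dopamine input and takes part in reward, of adult male C57BL/6 mice aged 2 to 5 months. The saline group received saline by intraperitoneal injection (10 ml/kg) once a day for 7 days and was killed 24 h after the last injection. The cocaine group received cocaine on the same schedule and was killed at the same time, and the withdrawal group received cocaine for 7 days and was then kept without it for 8 days. The labels name cocaine doses of 10 and 20 mg/kg without saying which sample had which. RNA of 8 mice was pooled in each group and made into 1 poly(A) library, and each library was sequenced in 3 lanes. The lanes are repeat readings of 1 library, so n = 1 library per group, every SD and SE below covers sequencing only, and no test of treatment was possible. Saline and cocaine differ in the injected drug, and withdrawal differs from cocaine in the time after the last injection. Withdrawal differs from saline in both drug and time. No saline group was kept for 8 days, so the 2 cannot be told apart there.

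The proteasome is the large protease that degrades proteins tagged with ubiquitin chains. Its core particle is a barrel of outer alpha rings, encoded by Psma genes, which gate the entrance, and inner beta rings, encoded by Psmb genes, which hold the cutting sites. The regulatory particle caps the barrel: Psmc genes encode the ring of ATPases that unfolds the substrate, and Psmd genes encode the parts that bind and remove ubiquitin. In neurons the proteasome takes part in turning over synaptic proteins. Interferon induces replacement beta subunits, which form the immunoproteasome, best known for making peptides for antigen presentation.

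Each library's total was 26006605 mapped reads for saline, 24219333 for cocaine and 19452882 for withdrawal, with 5546362 to 12026754 in a lane. The median member rested on 2608 reads in the saline library, 1797 in cocaine and 1396 in withdrawal. Psmb9 had the fewest, at 33.9, 17.4 and 20.1 reads (reads were recovered from the RPKM values and need not be whole), and Psmd4 the most, at 8822, 6592 and 4928. The medium spiny neuron markers, which mark the main neurons of this region, were all detected, and their summed level was 1985 to 2083 RPKM over the saline lanes, 1434 to 1519 over the cocaine lanes and 1732 to 1748 over the withdrawal lanes. Penk and Ppp1r1b made up most of that sum, at 1018 and 655 RPKM in saline. Against saline the median difference of the 10 markers was -0.31 in cocaine and -0.01 in withdrawal. In cocaine 9 of 10 were below saline, where 56.5% of all genes were. All lanes of 7 markers (70%) lay below the saline lanes there, against 23.9% of all genes. Ppp1r1b and Tac1 were called lower in cocaine, where 2.41% of all genes were. In withdrawal the markers were mixed, with 6 below saline and 4 above. Pde10a was above saline in both (0.35 and 0.69) and was called higher in withdrawal, where 3.96% of all genes were. Between withdrawal and cocaine all 10 had every withdrawal lane above every cocaine lane (median 0.34), where 8.66% of all genes had. The summed level of 8 endothelial markers was 47.6 to 49.2, 62.6 to 68.5 and 75.3 to 81.4 RPKM in saline, cocaine and withdrawal. That of 5 erythrocyte markers was 446 to 474, 573 to 650 and 336 to 363 RPKM. All 5 were called lower in withdrawal than in cocaine, where 0.548% of all genes were. In bulk tissue, fewer cells of a type and less RNA per cell cannot be told apart, and the part of these shifts in the values below was not tested.

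Proteasome subunit RNA was lower in the cocaine and withdrawal libraries than in the saline library across nearly the whole complex. The summed level of the 37 genes was 2221 ± 25.8 RPKM in saline (SD over 3 lanes), 1730 ± 33.1 in cocaine and 1667 ± 57.1 in withdrawal, which is 22.1% and 24.9% below saline. In the saline lanes the sum was 2199, 2216 and 2250 RPKM, in the cocaine lanes 1693, 1742 and 1756, and in the withdrawal lanes 1630, 1733 and 1638. Every cocaine and withdrawal lane therefore lay below every saline lane, while the cocaine and withdrawal lanes overlapped. The deficit was of similar size in each name group: against saline, the alpha ring genes summed to 24.0% less in cocaine and 28.2% less in withdrawal, Psmb1 to Psmb7 to 26.0% and 27.0% less, the Psmc genes to 23.1% and 25.2% less, and the Psmd genes to 17.5% and 21.6% less.

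**Figure D1:**
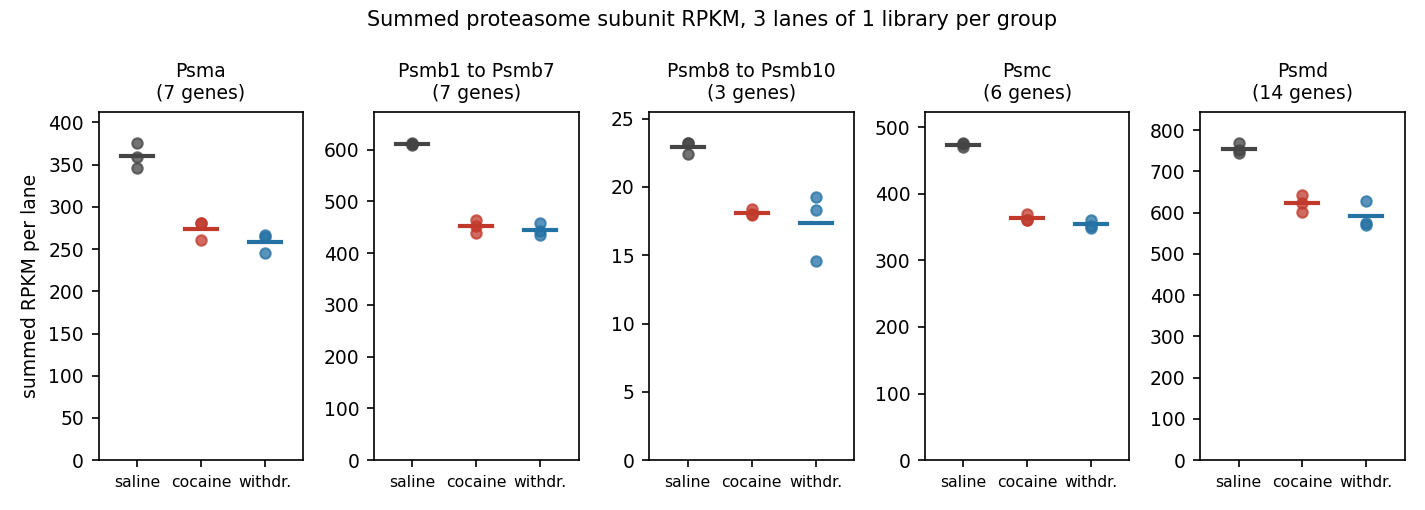
Summed RPKM of each name group of proteasome genes (linear axes from 0, each panel with its own scale) in the 3 lanes of the saline, cocaine and withdrawal (withdr.) libraries; points are lanes and bars are lane means. In every panel all cocaine and withdrawal lanes lie below all saline lanes, for example 439 to 464 and 435 to 459 RPKM against 609 to 612 for Psmb1 to Psmb7.

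The differences of single genes were small. Differences are given as the mean over lanes of log2(RPKM + 0.5) in one library minus that in another, which understates the change of low genes, and a gene was called when the difference reached 1.5 times (0.58 on this scale) and no lane of one library overlapped the lanes of the other. In the cocaine library 36 of 37 members were below saline, where 56.5% of all genes were, or 35 when the median difference of all genes was set to 0 or the libraries were scaled to their 75th percentile, which put Psmd3 on the side of Psmd5. The members' median difference was -0.35, against -0.05 over all 14051 genes. Psmb9 passed the limit of 1 RPKM only through its saline level, so its direction is partly fixed by that limit; without it 35 of 36 members were below saline in each comparison, with medians of -0.34 and -0.42. No member was called lower or higher, where 2.41% of all genes were called lower and 2.93% higher (1.45% and 3.81% with the scaling to the 75th percentile). Without the size limit, 27 of 37 members (73.0%) had all cocaine lanes below all saline lanes, against 23.9% of all genes, and none had them above, against 18.3%. With a limit of 20% lower in place of 1.5 times, 17 members were called lower, against 12.1% of all genes. A limma fit to the lanes, which compares these libraries and not the treatments, had 24 members lower at an adjusted p under 0.05, against 14.4% of all genes.

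In the withdrawal library 36 of 37 members were again below saline, where 56.6% of all genes were, or 35 with the same scalings, which again put Psmd3 above. The median was -0.42, against -0.06 over all genes. Psma5, Psmb7 and Psmc6 were called lower and no member higher, where 3.37% of all genes were called lower and 3.96% higher (1.99% and 5.44% with the scaling to the 75th percentile, which left only Psma5 called). The lanes lay wholly below those of saline for 29 of 37 members (78.4%), against 25.6% of all genes, and wholly above for none, against 18.6%. With the limit of 20%, 25 members were called lower, against 15.2% of all genes, and limma had 28 lower, against 18.2%. Both comparisons share the saline library, so they are not independent; 25 members had lanes wholly below saline in both, against 17.6% of all genes.

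Between the withdrawal and cocaine libraries the members differed little. The median was -0.05, against -0.01 over all genes, with 28 members below 0 (52.1% of all genes were) and 9 above. No member was called, where 0.548% of all genes were called lower and 0.47% higher. Psma3, Psmc6 and Psmd8 had withdrawal lanes wholly below the cocaine lanes, against 9.42% of all genes, and Psmc1 had them wholly above, against 8.66%. Psmc6 alone was called lower at the limit of 20%, against 2.42% of all genes.

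**Figure D2:**
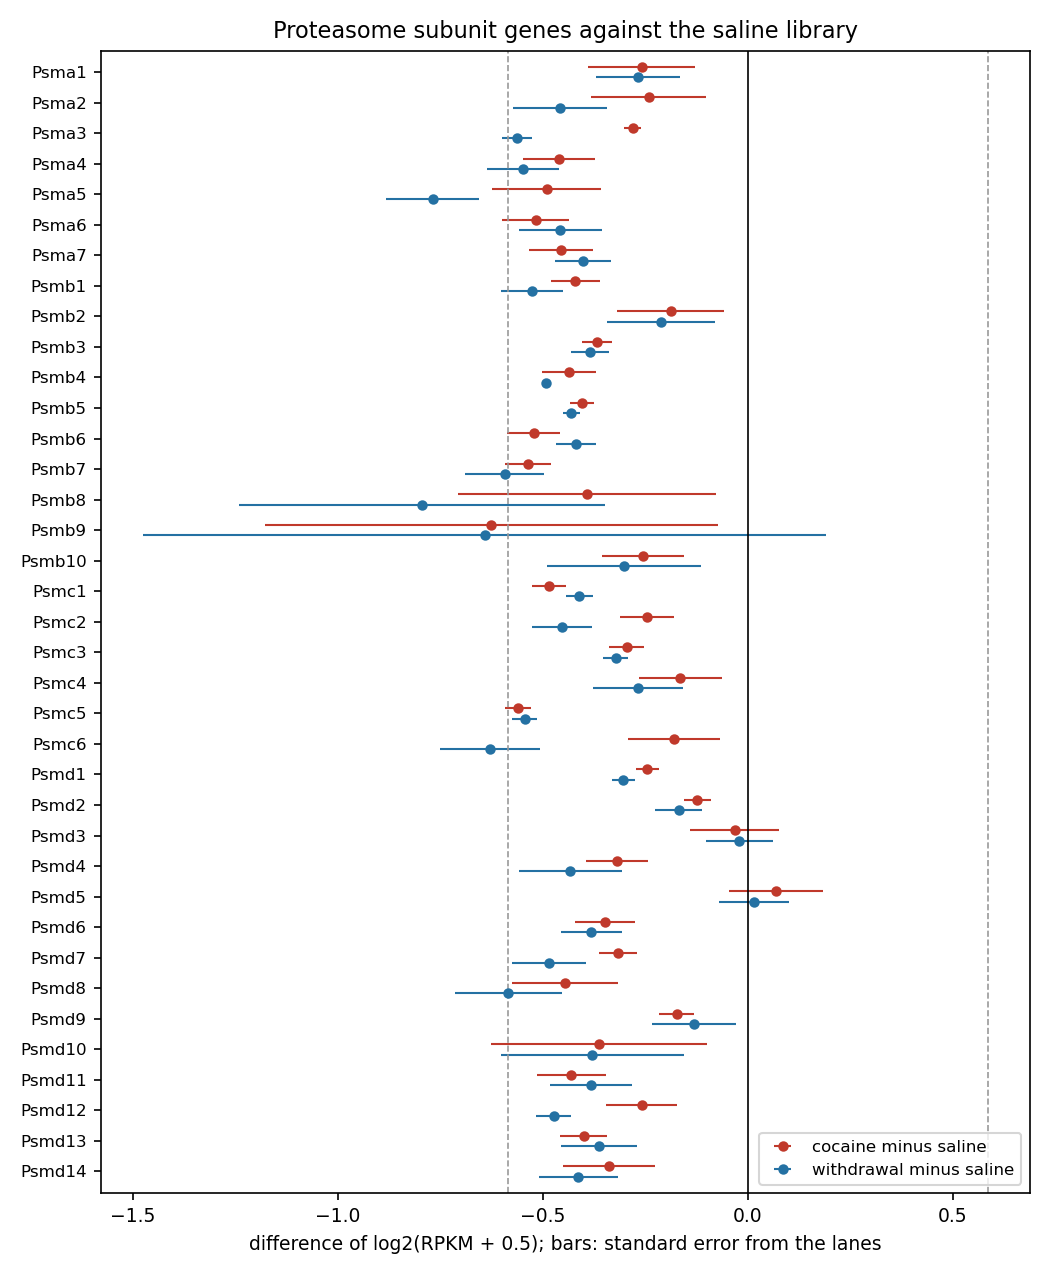
Difference of log2(RPKM + 0.5) from the saline library for each of the 37 proteasome genes, cocaine in red and withdrawal in blue; horizontal bars are standard errors from 3 lanes of 1 library and dashed lines mark 1.5 times. All genes but Psmd5 lie left of 0 in both comparisons (Psmd3, the nearest to it, crosses 0 with the scalings named above), and the widest bars belong to Psmb8 and Psmb9, which had the fewest reads.

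The promoters of the members were searched for shared motifs, and none was common to all. RefSeq start sites (build GRCm38.p6) gave 33 windows of 300 bases, 250 before and 50 after a start, for 31 of 37 members, and each was searched on both strands for 7 short motifs, beside 32851 windows of all genes. The ETS-type motif CCGGAAG was in 11 of 33 member windows (33.3%, 10 genes), against 8.86% of all windows. The motif of nuclear respiratory factor, GCGCA and GCGC with any 1 base between, was in 6 (18.2%), against 4.60%, and the GC box GGGCGG, to which Sp-family factors bind, in 19 (57.6%), against 35.7%. The CCAAT box was in 36.4%, against 37.4%. The antioxidant response element TGACNNNGC, the kind of site through which the factors encoded by Nfe2l1 and Nfe2l2 are known to raise proteasome genes, was in 5 (15.2%), against 12.4%. The interferon-linked motifs were in few windows. GAAA and GAAA with any 2 bases between, the interferon-stimulated response element, was in 3 (9.09%, against 3.44%), of Psmb3, Psmd4 and Psmd9. TTCNNNGAA, the gamma-activated site, was in 2 (6.06%, against 8.30%), of Psmb8 and Psmd2. The ETS motif and the nuclear respiratory factor motif fell in separate genes. A match is a description of letters and not evidence of binding.

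The stretches below belong to members whose values in every lane follow, with the motif in capitals, 5′ to 3′ on the strand of the gene. Not every match in such members is shown: CCGGAAG in Psmd2 and Psmd4 and TGACNNNGC in Psmc6, among others, are left out. Psmb5, Psmb6 and Psmd9 carry TGACNNNGC close to the start.
Psmb5: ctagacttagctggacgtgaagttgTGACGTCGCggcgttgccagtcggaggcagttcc
Psmb6: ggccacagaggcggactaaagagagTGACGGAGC
Psmd9: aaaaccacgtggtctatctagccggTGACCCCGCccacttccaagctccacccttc
They lie at chr14:54618009-54618067 on the minus strand, chr11:70525323-70525356 on the plus strand and chr5:123228134-123228189 on the plus strand, with the motif beginning 47, 9 and 31 bases before the start. Psmb5 and Psmb6 were among the members with lanes apart from saline in both comparisons, and Psmd9 was so in cocaine alone.

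Psma6, Psmc1 and Psmc6 carry CCGGAAG, on the opposite strand in Psmc1.
Psma6: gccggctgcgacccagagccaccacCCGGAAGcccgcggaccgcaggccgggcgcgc
Psmc1: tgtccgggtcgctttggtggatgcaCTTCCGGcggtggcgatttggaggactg
Psmc6: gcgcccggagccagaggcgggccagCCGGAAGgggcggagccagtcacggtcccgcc
They lie at chr12:55398668-55398724, chr12:100110149-100110201 and chr14:45329699-45329755, all on the plus strand, 132, 28 and 100 bases before the start. Psma6 and Psmc1 had lanes below saline in both comparisons, whereas Psmc6 overlapped saline in cocaine and was lower in withdrawal. Psmd2 (-0.12 and -0.17) and Psmd4 (-0.32 and -0.43), whose matches are not shown, also had lanes below saline in both.

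Psma3 and Psmc5 carry the nuclear respiratory factor motif, on the opposite strand in Psmc5, and Psmb8 carries TTCNNNGAA.
Psma3: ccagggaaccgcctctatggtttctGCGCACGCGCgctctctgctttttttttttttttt
Psmc5: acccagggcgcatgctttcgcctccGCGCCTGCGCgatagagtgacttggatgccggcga
Psmb8: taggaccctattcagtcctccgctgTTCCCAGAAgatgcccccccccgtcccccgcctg
They lie at chr12:70974520-70974579, chr11:106256111-106256170 and chr17:34198073-34198131, all on the plus strand, 78, 49 and 97 bases before the start.

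The beta subunits with the cutting sites are Psmb5 (chymotrypsin-like), Psmb6 (caspase-like) and Psmb7 (trypsin-like). Psmb5 was at 147, 144 and 144 RPKM in the saline lanes, 109, 113 and 106 in the cocaine lanes and 108, 110 and 105 in the withdrawal lanes. Psmb6 was at 132, 121 and 127 RPKM in saline, 86.6, 83.0 and 94.2 in cocaine and 98.9, 93.1 and 91.5 in withdrawal. Psmb7 was at 31.7, 34.0 and 34.3 RPKM in saline, 23.3, 21.4 and 23.6 in cocaine and 19.7, 24.6 and 21.6 in withdrawal. For all 3 genes every saline lane stood above every other lane, and the cocaine and withdrawal lanes overlapped. The differences from saline were -0.40 ± 0.029 (SE over lanes, as below) and -0.43 ± 0.021 for Psmb5, and -0.52 ± 0.065 and -0.42 ± 0.049 for Psmb6, in cocaine and withdrawal. For Psmb7 they were -0.54 ± 0.056 and -0.59 ± 0.097, the second of which was called. That call sits at the limit: it was lost without the second saline lane (-0.58), the third (-0.57), the first withdrawal lane (-0.52) or the third (-0.58).

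The other constitutive beta subunits have no cutting site of their own. Psmb4, the highest of them, was at 147 ± 0.443 RPKM in saline, 109 ± 8.64 in cocaine and 105 ± 0.520 in withdrawal. Psmb1 differed from saline by -0.42 in cocaine and -0.53 in withdrawal, Psmb3 by -0.37 and -0.38, and Psmb2 by -0.19 and -0.21. Psmb2 was the only one of the 7 constitutive beta genes whose lanes overlapped those of saline, in both comparisons. The median of the 7 was -0.42 in cocaine and -0.43 in withdrawal.

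Of the immunoproteasome genes, Psmb8 and Psmb9 were the lowest of all members and their readings the least certain. Psmb8, the replacement for Psmb5, was at 2.58, 3.53 and 4.83 RPKM in the saline lanes, 2.71, 3.41 and 1.83 in cocaine and 2.81, 2.26 and 0.884 in withdrawal. Psmb9, the replacement for Psmb6, was at 0.433, 1.96 and 2.31 RPKM in saline, 0.393, 0.769 and 1.05 in cocaine and 0.375, 0.157 and 2.45 in withdrawal. The lanes of the 3 libraries overlapped for both genes, and the highest Psmb9 lane of all was a withdrawal lane. Psmb8 differed from saline by -0.39 ± 0.32 in cocaine and -0.79 ± 0.45 in withdrawal, and Psmb9 by -0.63 ± 0.55 and -0.64 ± 0.83, so these differences were not resolved at 110, 76.9 and 45.3 reads for Psmb8 and fewer for Psmb9. Leaving out the first saline lane brought both over the limit in cocaine, at -0.59 for Psmb8 and -1.12 for Psmb9. Leaving out the third withdrawal lane did so for Psmb9 in withdrawal, at -1.30, as leaving out the first saline lane (-0.99) or the first withdrawal lane (-1.05) did for Psmb8.

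Psmb10, the replacement for Psmb7, was much higher. It was at 20.2, 16.9 and 16.1 RPKM in saline, 14.9, 14.2 and 15.0 in cocaine and 16.1, 15.9 and 11.3 in withdrawal. Its cocaine lanes lay below the saline lanes (-0.26 ± 0.10) and its withdrawal lanes reached into them (-0.30 ± 0.19). In the share of replacement over constitutive RNA, Psmb8 was 2.52% ± 0.802 of Psmb5 in saline, 2.41% ± 0.647 in cocaine and 1.84% ± 0.906 in withdrawal, and Psmb9 was 1.26% ± 0.811, 0.831% ± 0.339 and 1.08% ± 1.39 of Psmb6. Psmb10 was 53.5% ± 9.0 of Psmb7 in saline, 64.5% ± 1.49 in cocaine and 66.0% ± 14.7 in withdrawal, but these shares depended on the gene models. The model behind the Psmb7 values was 3421 bp, 2.95 times the 1160 bp of its principal transcript in GENCODE, and per kilobase of principal transcript the saline shares were 17.5% for Psmb10, 0.530% for Psmb9 and 1.84% for Psmb8. For all 3 shares the lanes of the libraries overlapped. Microglia are the brain cells best known for immunoproteasome genes, and endothelial cells also respond to interferon. Microglial markers summed to 171 to 186 RPKM over the saline lanes, 154 to 163 over cocaine and 150 to 157 over withdrawal. Their median differences from saline were -0.10 and -0.14, with 2 of 10 above saline in each comparison. Lanes lay wholly below saline for C1qa in cocaine and for C1qa, C1qb and C1qc in withdrawal, against 23.9% and 25.6% of all genes. Those 3 genes were at 31.6, 35.0 and 22.7 RPKM in saline. None of the 10 was at 0, and none was called, where 2.41% and 3.37% of all genes were called lower. Endothelial markers were higher instead, with 3 of 8 called higher in cocaine and 6 of 8 in withdrawal, against 2.93% and 3.96% of all genes. The part of either cell type in the immunoproteasome values was not tested.

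**Figure D3:**
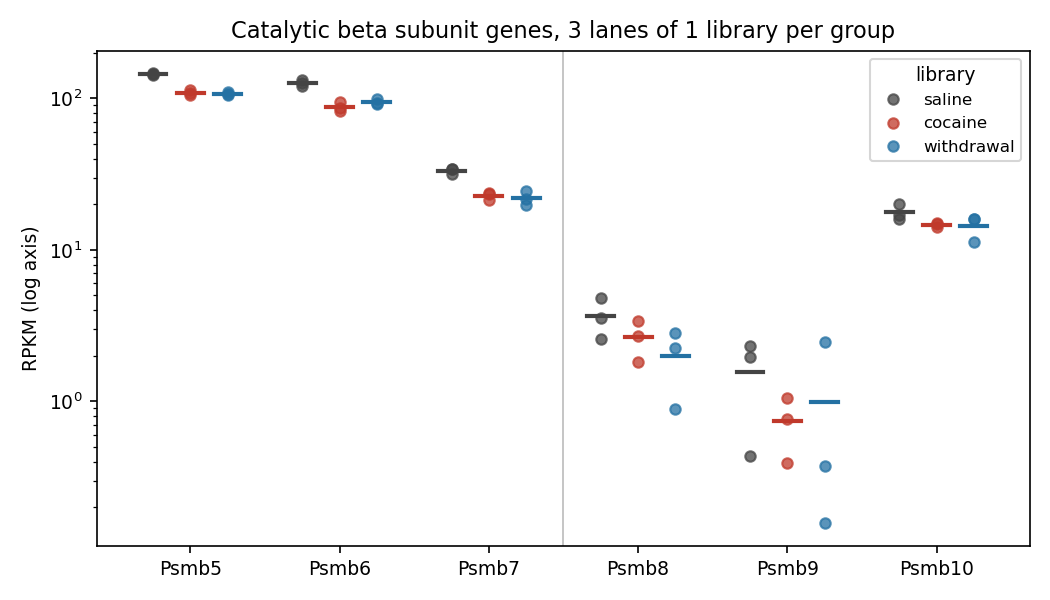
RPKM (log axis) of the constitutive catalytic genes Psmb5, Psmb6 and Psmb7 and, right of the line, their inducible replacements Psmb8, Psmb9 and Psmb10; points are the 3 lanes of the 1 library per group and bars are lane means. The constitutive genes show saline above both other libraries with no overlap, whereas Psmb8 and Psmb9, at 0.157 to 4.83 RPKM, overlap between all libraries.

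All 7 alpha ring genes were below saline in both comparisons, with medians of -0.46 in each. Psma6, the highest of them, was at 83.6, 79.9 and 92.8 RPKM in saline, 56.2, 58.9 and 63.4 in cocaine and 56.9, 60.8 and 68.8 in withdrawal. Its difference from saline was -0.52 ± 0.081 in cocaine and -0.46 ± 0.10 in withdrawal. Psma5, the lowest, was at 31.7, 32.8 and 35.8 RPKM in saline, 26.8, 20.0 and 24.6 in cocaine and 16.8, 21.1 and 20.6 in withdrawal. It was called lower in withdrawal (-0.77 ± 0.11) and lay at -0.49 ± 0.13 in cocaine, with saline lanes above all others. Psma3 was at 41.1, 41.9 and 41.3 RPKM in saline, 34.8, 34.0 and 33.2 in cocaine and 27.5, 26.9 and 29.2 in withdrawal. It had separated levels in all libraries, as Psmd8 did, with saline above cocaine (-0.28 ± 0.021) and cocaine above withdrawal (-0.28 ± 0.04). Psma1 (-0.26 and -0.27) and Psma2 (-0.24 and -0.46) had cocaine lanes that overlapped saline, and Psma4 (-0.46 and -0.55) and Psma7 (-0.46 and -0.40) did not.

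The 6 ATPase genes had a median of -0.27 in cocaine and -0.43 in withdrawal. Psmc5, the highest, was at 154, 155 and 153 RPKM in saline, 106, 100.2 and 108 in cocaine and 103, 110 and 104 in withdrawal. The saline lanes lay close together and well above the rest, and the differences, -0.56 ± 0.031 and -0.54 ± 0.031, came close to the limit without reaching it. Psmc1 was at 75, 78.5 and 80.8 RPKM in saline, 53.8, 57.2 and 55.9 in cocaine and 59.0, 57.9 and 58.9 in withdrawal. It lay at -0.48 ± 0.040 in cocaine and -0.41 ± 0.032 in withdrawal, and its withdrawal lanes were all above its cocaine lanes by a small margin (0.07 ± 0.03).

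Psmc6, the lowest ATPase gene, had another course. It was at 17.8, 19.9 and 15.7 RPKM in saline, 14.7, 16.8 and 15.3 in cocaine and 10.8, 10.6 and 12.6 in withdrawal. Cocaine overlapped saline (-0.18 ± 0.11), whereas every withdrawal lane was below every lane of both other libraries, at -0.63 ± 0.12 against saline and -0.45 ± 0.093 against cocaine. The latter was the most negative of the 37 differences between withdrawal and cocaine. The call against saline was lost without the second saline lane (-0.55). Psmc2 (-0.24 and -0.45), Psmc3 (-0.30 and -0.32) and Psmc4 (-0.16 and -0.27) were below saline with lanes apart, except Psmc4 in cocaine.

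Among the non-ATPase parts of the base, Psmd4, a ubiquitin receptor and the member with the highest level, was at 240.0, 240.1 and 267 RPKM in saline, 189, 215 and 195 in cocaine and 176, 215 and 165 in withdrawal. It lay at -0.32 ± 0.076 and -0.43 ± 0.13, with lanes apart from saline in both. The scaffold genes Psmd1 (-0.24 and -0.30) and Psmd2 had smaller differences. Psmd2 was at 73.1, 73.1 and 72.3 RPKM in saline, 64.0, 69.2 and 67.4 in cocaine and 60.0, 66.1 and 68.5 in withdrawal. Its lanes were apart from saline although the differences were only -0.12 ± 0.03 and -0.17 ± 0.057.

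The lid holds 8 members, with medians of -0.34 and -0.40. In each comparison 7 of 8 had lanes wholly below saline, against 23.9% and 25.6% of all genes. Psmd14, the enzyme that removes ubiquitin from the substrate, lay at -0.34 in cocaine and -0.41 in withdrawal. None of the 8 was called, where 2.41% and 3.37% of all genes were called lower. The other lid genes with lanes below saline in both were Psmd8 (-0.45 and -0.58), Psmd7 (-0.32 and -0.49), Psmd12 (-0.26 and -0.47), Psmd11 (-0.43 and -0.38), Psmd13 (-0.40 and -0.36) and Psmd6 (-0.35 and -0.38). Psmd3 was the exception, at 54.8, 50.6 and 48.5 RPKM in saline, 49.9, 44.8 and 56.4 in cocaine and 54.4, 50.8 and 46.6 in withdrawal. All its libraries overlapped, with differences of -0.03 ± 0.11 and -0.02 ± 0.08 that turned to 0.02 and 0.04 with the median of all genes set to 0.

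The 3 chaperones that assemble the base, which are not part of the finished proteasome, had medians of -0.17 and -0.13. Psmd5, which stayed above saline under every scaling tried, was at 30.3, 28.9 and 35.1 RPKM in saline, 29.5, 35.5 and 33.9 in cocaine and 30.8, 32.6 and 31.6 in withdrawal. Its lanes overlapped throughout (0.07 ± 0.11 and 0.01 ± 0.09). Psmd9, the lowest Psmd gene, was at 8.64, 8.72 and 8.29 RPKM in saline, 7.80, 7.12 and 7.66 in cocaine and 7.07, 8.97 and 7.35 in withdrawal, so cocaine lay apart from saline (-0.17 ± 0.04) and withdrawal did not (-0.13 ± 0.10). Psmd10 was at -0.36 and -0.38 with overlapping lanes.

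Subunits that sit in the particle in equal numbers had unequal RNA levels. Over the 31 members other than the inducible subunits and base chaperones, saline levels ran from 17.1 RPKM for Psmd11 to 249 for Psmd4, a 14.5-fold range, with a median of 51.3. The order depends on the gene model that the reads were divided by. Per kilobase of principal transcript the 29 of these members with one ran from Psmc6, at 17.4, to Psmb6, at 210.3, a 12.1-fold range. Psmd11 was at 34.7. Psmd4 and Psmd8 had no principal transcript, so the highest gene and the range are not over the same genes on both scales. For 13 of 34 members with a principal transcript in GENCODE, the model was at least 1.5 times as long as that transcript, up to 3.16 times for Psmb2, while for Psma2 it was 0.325 and for Psmd5 0.465 of the transcript. RefSeq lists pseudogenes of Psma5, Psmb5, Psmb6 and Psmb7 that have no row of their own in the table, so how reads were shared with them is not known and those levels are uncertain, the called genes Psma5 and Psmb7 included.

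The differences from saline followed the length of the gene model, in the members as in all genes. Over all 14051 genes Spearman's rho between model length and difference was 0.464 in cocaine and 0.422 in withdrawal, and 0.0128 between withdrawal and cocaine. Over the 37 members it was 0.424, 0.457 and 0.121. These are correlations across genes of the same libraries, given as descriptions. The members' models were short, with a median of 2043 bp against 3531 bp over all genes tested, and short genes as a whole were lower in cocaine and withdrawal. Members with models under 2043 bp had medians of -0.43 and -0.47, against -0.24 and -0.27 over all 2359 genes of 922 to 2042 bp. The longer members had -0.28 and -0.38, against -0.07 and -0.08 over all 7482 genes of 2043 to 5768 bp. The shorter and the longer members thus both lay below all genes of their range of lengths.

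With each difference set against the median of its length bin (20 bins), the members' median was -0.16 in cocaine and -0.19 in withdrawal. In cocaine 33 members were still below the median of their bin, where 50% of all genes lie by construction, and Psmd5, Psmc4, Psmb10 and Psma2 were above it. In withdrawal 34 were below, and Psmd5, Psmb10 and Psmd3 were above. Members with lanes wholly below saline after this step numbered 18 in cocaine, against 16.4% of all genes, and 21 in withdrawal, against 18.1%, down from 27 and 29. None lay wholly above in cocaine, against 16.3%, and 1, Psmd5, did in withdrawal, against 18.7%. The most negative member was Psmd11 in cocaine (-0.50) and Psmb7 in withdrawal (-0.51), and none was called, against 0.697% and 1.24% of all genes called lower after the same step. Between withdrawal and cocaine the centred value of Psmc6 was -0.42. The source of the length relation was not tested.

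**Figure D4:**
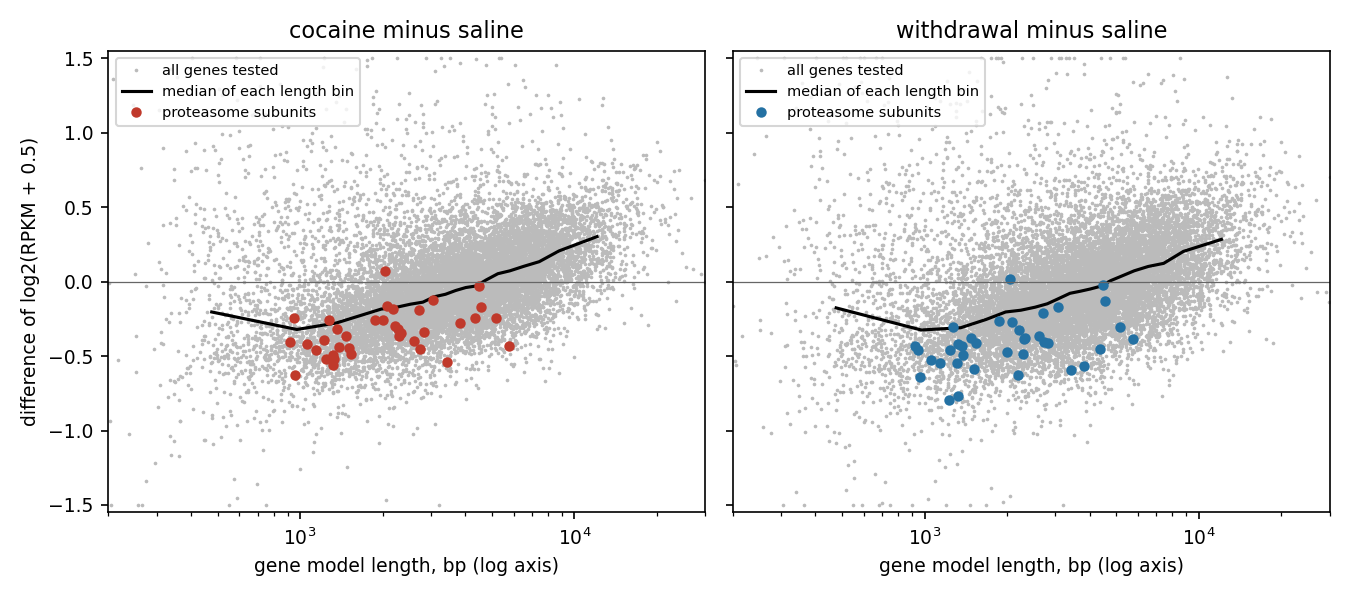
Difference of log2(RPKM + 0.5) from the saline library against gene model length (log axis) for all genes tested (grey, values beyond 1.5 drawn at the edge) and the 37 proteasome genes (red for cocaine, blue for withdrawal); the black line joins the medians of 20 length bins. Shorter genes lie lower, and most proteasome genes lie below the line, 33 of 37 in cocaine and 34 of 37 in withdrawal.

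Both factors that act through the antioxidant response element were below saline by less than the limit for a call. Nfe2l1, whose product restores proteasome gene expression when the proteasome is inhibited, was at 209.6, 207 and 209.7 RPKM in saline, 204, 202 and 199 in cocaine and 209, 193 and 203 in withdrawal. Its differences were small (-0.05 ± 0.011 and -0.05 ± 0.032), with lanes wholly below saline in cocaine only. Nfe2l2, the oxidative stress factor, was at 3.57 ± 0.383 RPKM in saline, 3.09 ± 0.357 in cocaine and 2.98 ± 0.497 in withdrawal. Its differences were -0.18 ± 0.11 and -0.23 ± 0.14, with overlapping lanes.

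Other genes of the pathway were read from lists, of which 5 genes encode activators or the inhibitor of the proteasome. Psme2, part of the interferon-induced activator cap, was called lower in cocaine, at 54.7, 50.5 and 50.6 RPKM in saline, 32.7, 38.6 and 31.5 in cocaine and 34.5, 44.9 and 39.0 in withdrawal (-0.60 ± 0.097 and -0.40 ± 0.11). Its partner Psme1 was at -0.40 ± 0.13 and -0.36 ± 0.089. Psme4, a single-chain activator, overlapped saline in cocaine (0.11 ± 0.068) and was lower in withdrawal than in cocaine with lanes apart (-0.37 ± 0.066). The list's medians were -0.16 and -0.27. No other gene of it was called, where 2.41% of all genes were called lower in cocaine and 3.37% in withdrawal.

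The chaperones of the core particle had medians of -0.45 in both comparisons with 5 genes. Lanes lay wholly below saline for 2 of them in cocaine and 3 in withdrawal, against 23.9% and 25.6% of all genes. Psmg1 was above saline with overlapping lanes (0.03 and 0.13). Psmg4 overlapped saline in both (-0.18 and -0.45), and Psmg3 (-0.45 and -0.44) in cocaine only. In withdrawal 2 of 5 were called lower, where 3.37% of all genes were. Pomp, needed to complete the beta rings, was at 72.5, 68.0 and 72.8 RPKM in saline, 50.6, 54.1 and 47.0 in cocaine and 38.2, 47.8 and 43.6 in withdrawal, and was called lower in withdrawal (-0.72 ± 0.098). Psmg2, which helps to build the alpha ring, was at 6.46, 6.14 and 6.70 RPKM in saline, 4.0, 5.30 and 3.82 in cocaine and 3.26, 3.26 and 2.93 in withdrawal, and was called lower in withdrawal (-0.93 ± 0.055). Both had every lane of cocaine and withdrawal below every saline lane. The 6 partner genes had medians of -0.13 and -0.15, with 3 above saline in cocaine and 2 in withdrawal. In each comparison 1 of 6 was called lower, where 2.41% and 3.37% of all genes were. Shfm1, the smallest lid protein, was called lower in cocaine, at 100.4, 76.2 and 88.0 RPKM in saline, 54.5, 56.3 and 54.7 in cocaine and 55.1, 66.9 and 75.1 in withdrawal. Uchl5, a deubiquitinase bound to the base, was at 10.9, 12.3 and 11.6 RPKM in saline, 10.4, 8.92 and 8.42 in cocaine and 6.89, 9.25 and 6.20 in withdrawal, and was called lower in withdrawal (-0.63 ± 0.17). AI314180, which encodes a proteasome adaptor protein, was higher with lanes apart in cocaine (0.36 ± 0.070) and in withdrawal (0.25 ± 0.036). Usp14 was higher with lanes apart in cocaine (0.11 ± 0.039) and overlapped saline in withdrawal (-0.15 ± 0.10).

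The 4 ubiquitin genes were below saline with lanes apart in both comparisons, where 17.6% of all genes were. Their medians were -0.34 and -0.33. Ubb, which encodes a chain of ubiquitin repeats, was at 1686 RPKM in saline, 1351 in cocaine and 1344 in withdrawal. Rps27a, which encodes ubiquitin fused to a ribosomal protein, was at 914, 687 and 682 RPKM. None of the 4 was called, where 2.41% of all genes were called lower in cocaine and 3.37% in withdrawal. The E1 and E2 enzymes that attach ubiquitin had medians of -0.14 and -0.28 over 12 genes. None of the 12 was called, against the same shares. Ube2r2, the farthest below saline in cocaine (-0.48 ± 0.049), was at 36.5, 36.3 and 40.2 RPKM in saline, 26.7, 26.5 and 27.1 in cocaine and 27.2, 28.8 and 28.4 in withdrawal. The 9 shuttle and unfolding factors, which carry substrates to the proteasome, had medians of -0.05 and -0.09, close to those of all genes. None of the 9 was called, again against 2.41% and 3.37%. Ufd1l lay farthest below saline, with lanes apart in cocaine (-0.38 ± 0.12) and in withdrawal (-0.24 ± 0.059). Ubqln2 lay above saline with lanes apart in both (0.22 ± 0.11 and 0.24 ± 0.078).

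Other large complexes of many subunits also lay below saline. The COP9 signalosome, related to the lid, had medians of -0.29 in cocaine and -0.26 in withdrawal over 9 genes, the translation initiation factor eIF3 had -0.31 and -0.29 over 13, and the chaperonin TRiC/CCT had -0.20 and -0.32 over 8. No gene of the 3 complexes was called in either comparison. Of all genes 2.41% were called lower in cocaine and 3.37% in withdrawal. Lists of 8 to 13 genes are too short for 0 calls to say anything at such shares. In cocaine, lanes were wholly below saline for 7 (77.8%), 12 (92.3%) and 7 (87.5%) genes. In withdrawal they were so for 5 (55.6%), 12 (92.3%) and 8 (100%). The shares were 73.0% and 78.4% of the proteasome members, and 23.9% and 25.6% of all genes. The proteasome's medians of -0.35 and -0.42 were lower than these, but its gene models were also shorter. Their median length was 2043 bp, against 3118 bp for COP9, 2486 bp for eIF3 and 2561 bp for TRiC/CCT. Medians centred by length were not taken for these 3 complexes, and the difference between complexes was not tested.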

How the data were processed

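The deposited values are RPKM, per the file headers, in 13 tables. The authors mapped 37-base paired reads with Bowtie 0.12.7 to mm9, as the submitters' processing notes list them. The counting program and gene models are not given in the sources used here. From the 13 tables, the joint table of 9 lanes was taken, since none of the 410115 values of the other 12 tables differed from it. Gene model lengths were recovered for 21423 of 21423 genes. Each was the smallest length at which RPKM times lane total times length gave whole multiples of 1 base of a read. For 108 models, none of them a member, it was then multiplied by 37. These were under 37 bp, or only the longer value was close to the exon length in GENCODE. Reads followed from the lengths.

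Differences are of means over 3 lanes of log2(RPKM + 0.5) on 14051 genes whose lanes averaged 1 RPKM or more, called at 1.5 times with no overlap of lanes. With 1 pooled library per group no p about treatment exists. Levels have a median SD over lanes of 0.0872 to 0.111 (log2) in the members. limma 3.58.1 in R 4.3.3 (trend, robust, Benjamini-Hochberg) on the lanes served only as an alternative count. Python 3.11.15 with numpy 2.4.6, pandas 2.3.3, scipy 1.17.1 and matplotlib 3.10.9 did the rest. The scripts were tested on simulated data.

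Values in every lane are given for the catalytic and immunoproteasome genes, for the highest and lowest member of each name group, and for the 3 most negative and 3 most positive differences in each comparison. Of the other pathway lists, genes that were called or differed most are named, not all with lane values. The members and lists were chosen with earlier results of these data known. Gene names were matched to RefSeq (GRCm38.p6) for promoters and to GENCODE for principal transcripts; no coordinates on mm9 are given. Other limits, scalings, pseudocounts, filters, the deposited pooled values and leaving out each lane were tried as alternatives.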

Additional observations from a re-analysis of the deposited data

How the results depend on the processing

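No alternative turned a member's call around, and no member was called higher under any. In cocaine against saline, the 0 members called lower became 17 with the limit of 20% lower, 1 (Psmb9) without the lane condition, 24 with limma on the lanes and 24 with limma and the lane number as a replicate block, and 0 to 2 when a lane was left out (2, Psmb8 and Psmb9, without the first saline lane). The median of -0.35 became -0.28 with scaling to the 75th percentile and -0.16 centred by gene length, with a range of -0.37 to -0.30 when a lane was left out. In withdrawal against saline, the 3 members called lower became 25 with the limit of 20%, 0 with a limit of 2 times, 5 without the lane condition, 1 with the median of all genes set to 0, 1 with scaling to the 75th percentile, 0 centred by gene length, 28 with limma, 27 with limma and the replicate block, and 1 to 6 when a lane was left out (5 without the first saline lane, 1 without the second, 6 without the second withdrawal lane). The median of -0.42 became -0.36 with the median of all genes set to 0, -0.34 with scaling to the 75th percentile and -0.19 centred by length, and ranged from -0.44 to -0.39 when a lane was left out. In withdrawal against cocaine, 1 member (Psmc6) was called lower with the limit of 20%, and 0 to 1 when a lane was left out (Psmb9, -0.67, without the third withdrawal lane). Psma5 kept its call in withdrawal except centred by length (-0.46) and with the limit of 2 times. Psmb7 also lost it with a pseudocount of 1 (-0.58) and on the deposited pooled values (-0.57). The cause of these changes was not tested, apart from the limits themselves. Lane numbers did not pair the libraries: deviations of same-numbered lanes correlated at -0.051 to 0.076, and of others at -0.064 to 0.044. At 17.4 to 110 reads a library, the depth limits Psmb8 and Psmb9.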
